A study of Homo sapiens with 4 samples.

Results

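The 10 genes described here encode receptors of the epidermal growth factor (EGF) family, their ligands and proteins that restrain them, and were taken by name from the 60656 gene IDs in each count table. They are the receptors EGFR, ERBB2 and ERBB3, the ligands EREG, AREG and TGFA, and the inhibitor group LRIG1, LRIG2, LRIG3 and ERRFI1. Each symbol matched 1 ID, and all 10 passed the filter on low counts and were among the 19103 genes tested. The libraries hold newly made RNA from HCT116, an established line of colorectal carcinoma, prepared by TTchem-seq. The cells take up 4-thiouridine for a short time, and only the RNA fragments that carry it are purified and sequenced.

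The DKO group (2 libraries, genotype given as a TOP2A and TOP2B double knockout) matches a line given as TOP2A mAID/TOP2B -/-, in which TOP2A carries a degron, a tag that lets auxin trigger the protein's degradation, and TOP2B is deleted. It received 500 µM auxin (indole-3-acetic acid) for 8 h. The WT group (2 libraries) is labelled as wild type. Beside the double mutant the protocol names only the TOP2A mAID line, with no statement that it is the WT group, and it gives auxin only for the double mutant. Loss of the enzymes, auxin and differences between cell clones therefore cannot be told apart. Both lines spent 28 h in palbociclib (2 µM), which blocks the kinases CDK4 and CDK6 and so arrests cells in G1. Labelling took 30 min at 1 mM 4-thiouridine. TOP2A and TOP2B are the type II topoisomerases, which pass one DNA duplex through another, and the question is what their loss changes in the transcription of G1 cells.

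Receptors of this family are kinases that pair on binding a ligand and switch on the RAS to MAP kinase and PI3 kinase routes. The ligands are made as membrane proteins and released by metalloproteases, and ERBB2 has no ligand of its own but pairs with the other receptors. Colorectal cancer cells commonly make EREG and AREG themselves. LRIG1 is a membrane protein that binds the receptors and promotes their degradation, and ERRFI1 encodes MIG6, a cytoplasmic protein that blocks the EGFR kinase domain.

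Counted reads ranged from 51142867 to 53777749 per library. TOP2B was not called, with 7852 and 8000 reads in the DKO libraries against 7264 and 7303 in the WT libraries (adjusted p = 0.223), so its total count does not show the edit. TOP2A, whose degron acts on the protein, averaged 166 ± 2.26 CPM in the DKO libraries and 124 ± 2.43 CPM in the WT libraries (SD, n = 2 each, adjusted p = 3.46e-15). CPM is a gene's count scaled to a common library size. The epithelial markers EPCAM, KRT8, KRT18 and KRT19 were well covered in every library, with 2470 to 8623 reads, while CDX1 and VIL1 had 0 to 11. The 10 epithelial markers summed to 432 to 446 CPM in DKO and 472 to 505 CPM in WT, and of the 8 tested 5 were called lower and none higher, where 21.1% of all tested genes were lower and 19% higher. Summed levels of 6 fibroblast markers (3.14 to 3.73 CPM in DKO, 3.59 to 3.86 in WT, COL1A2 and LUM at 0 reads), 5 immune markers (1.29 to 1.69 in DKO, 1.00 to 1.39 in WT) and 4 endothelial markers (1.18 to 1.31 in DKO, 1.41 to 1.43 in WT) were low, and none of them was called. The part of the epithelial change in the results was not tested. In bulk libraries, fewer cells that transcribe a gene and less RNA per cell cannot be told apart.

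The promoters of the 3 genes with the largest differences, LRIG1, EREG and AREG, are shown because their RNA was more than 2-fold higher in DKO. The sequences are the 250 bases before the annotated start, from RefSeq on GRCh38.p14, written 5′ to 3′ on the gene's own strand. Capitals mark matches, on either strand, to the core of the xenobiotic response element (GCGTG), the CCAAT box (CCAAT), the TATA box (TATAAA) and the cyclic AMP response element (TGACGTCA). LRIG1 lies on the minus strand at chr3:66501122-66501371, EREG on the plus strand at chr4:74364895-74365144 and AREG on the plus strand at chr4:74444886-74445135.
LRIG1: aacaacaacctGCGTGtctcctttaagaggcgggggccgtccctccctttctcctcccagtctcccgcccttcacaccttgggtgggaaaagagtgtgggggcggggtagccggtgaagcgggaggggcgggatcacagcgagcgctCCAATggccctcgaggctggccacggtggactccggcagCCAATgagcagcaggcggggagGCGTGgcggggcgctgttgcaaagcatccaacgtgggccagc
EREG: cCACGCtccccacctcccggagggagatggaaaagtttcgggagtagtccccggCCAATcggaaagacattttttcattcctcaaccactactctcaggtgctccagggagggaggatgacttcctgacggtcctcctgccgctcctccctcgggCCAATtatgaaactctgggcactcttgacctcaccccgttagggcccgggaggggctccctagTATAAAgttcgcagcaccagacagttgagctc
AREG: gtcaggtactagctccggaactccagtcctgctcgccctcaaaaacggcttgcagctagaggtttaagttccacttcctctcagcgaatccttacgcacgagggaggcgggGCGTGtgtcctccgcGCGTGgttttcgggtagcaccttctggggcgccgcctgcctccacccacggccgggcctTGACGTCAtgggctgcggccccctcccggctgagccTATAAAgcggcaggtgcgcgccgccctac

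Both ligand promoters held a TATA box close to the start, at -32 to -27 in EREG and -29 to -24 in AREG, counted from -1 at the last base before the start. No other promoter of the 9 genes with a sequence held TATAAA, which 11.1% of all 27305 promoters of the same length hold. Only this exact string was searched, so variants such as the TATATATA near the ERRFI1 start were not counted. AREG alone held the full cyclic AMP response element, at -65 to -58, which 1.77% of all promoters hold. The xenobiotic core was found in EREG, AREG, LRIG1 and LRIG2 (31.9% of all promoters), and the CCAAT box in 6 of the 9 (33%). An AP-1 site (TGANTCA) was matched in ERBB2 alone (6.6%), and a GC box (GGGCGG, not capitalised here) in 7 of the 9 (42.3%). No matches of different motifs overlapped. These matches are letters in the sequence and do not show that a factor binds there.

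Among the 10 genes, 6 passed an adjusted p of 0.05 as higher in DKO and 2 as lower, by edgeR's quasi-likelihood test with Benjamini-Hochberg adjustment, the source of every adjusted p given here. Over all tested genes 40.1% were called, 19% higher and 21.1% lower. Higher calls made up 47.4% of these, and 55.9% with upper quartile scaling (4226 higher and 3328 lower). The median log2 fold change (DKO over WT) was 0.25 over the 10 genes and -0.01 over all tested genes. LRIG1, EREG and AREG were called and over 2-fold higher, as were 3.22% of tested genes. The DKO and WT libraries did not overlap for 9 of the 10 genes, with 6 higher and 3 lower in DKO, and ERBB3 was the exception. Such separation was seen in 67.9% of tested genes, 33% higher and 34.9% lower. Nothing in the labels tells whether the replicates came from separate cultures, so p-values measure only the spread between these libraries, which may be technical. Standard errors (SE) of fold changes were derived from the test statistic, which largely pools the spread over genes, and understate the error where the replicates of 1 gene differ more than most.

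**Figure D1:**
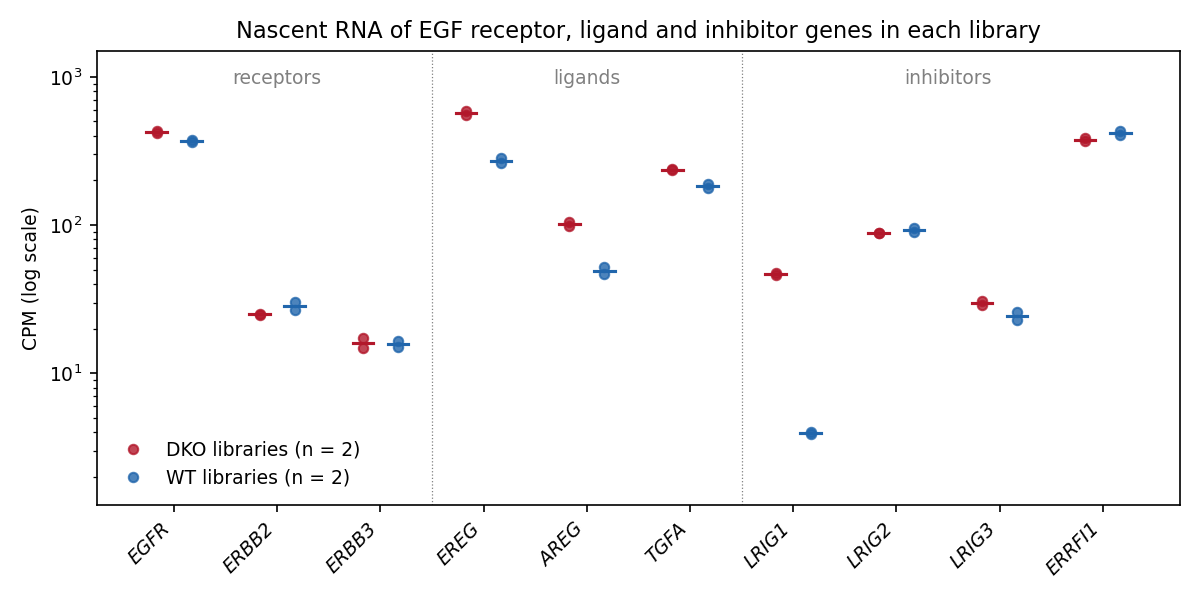
CPM of each gene on a log axis, with DKO libraries in red left of WT libraries in blue, 1 point per library and a line at each mean (n = 2). LRIG1 is near 47 CPM in DKO and near 4 CPM in WT, EREG and AREG are higher in both DKO libraries, and only ERBB3 has overlapping groups.

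All 3 ligand genes were called higher in DKO, where 19% of all tested genes were. EREG, which encodes epiregulin, a ligand of EGFR and ERBB4, had 586 and 555 CPM in the DKO libraries and 284 and 260.4 CPM in the WT libraries. The lower DKO library was well above the higher WT library. The log2 fold change was 1.07 ± 0.05 (SE, n = 2 per group, adjusted p = 3.56e-50), or 2.10-fold, and these values rest on 13300 to 31219 reads per library. AREG encodes amphiregulin, an EGFR ligand, and is the next of the 10 genes along chromosome 4. It had 105 and 98.9 CPM in DKO and 51.8 and 46.7 CPM in WT, again with no overlap. Its log2 fold change of 1.05 ± 0.05 (adjusted p = 8.26e-49), or 2.07-fold, was close to that of EREG. In each library the ratio of EREG to AREG per kb of gene span was nearly the same, at 2.34 and 2.35 in DKO and 2.29 and 2.33 in WT.

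TGFA, the gene of transforming growth factor alpha, an EGFR ligand, was higher by less. It had 238 and 235 CPM in DKO and 188 and 178 CPM in WT, and the groups did not overlap. This was 1.29-fold, a log2 fold change of 0.37 ± 0.05 (adjusted p = 6.04e-12). EREG, AREG and TGFA kept adjusted p-values under 0.05 in each of the 13 alternative analyses, including those with 1 library left out.

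EREG spans 74365145 to 74388749 and AREG 74445136 to 74455005 on chromosome 4 (GRCh38, the hg38 build the files use), both on the plus strand. Within 1 Mb of EREG, 12 other genes were tested, AREG among them, of which 5 were higher and none lower, with a median log2 fold change of 0.24. The median over the 608 other tested genes of chromosome 4 was 0.09, and over all tested genes 19% were higher and 21.1% lower. EPGN, the gene of the ligand epigen, 48355 bases from EREG, was not called, with 54 and 36 reads in DKO and 38 and 36 in WT. BTC, the betacellulin gene, lies within the same 1 Mb and, like AREG, is among the 5 higher genes. It had 7.08 and 6.51 CPM in DKO and 4.22 and 4.33 CPM in WT (log2 fold change 0.67 ± 0.11, adjusted p = 6.50e-08). TGFA lies on the minus strand of chromosome 2 from 70447284 to 70553826, and the 19 other tested genes within 1 Mb had a median log2 fold change of -0.10, with 1 higher and 6 lower.

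The receptor genes showed small differences in both directions. EGFR had 419.8 and 430.1 CPM in DKO and 377 and 365 CPM in WT. The groups did not overlap, and the log2 fold change was 0.20 ± 0.05 (adjusted p = 0.000515), or 1.14-fold. ERBB2, the receptor gene amplified in some breast and gastric cancers, had 24.8 and 25.2 CPM in DKO and 30.3 and 26.8 CPM in WT. It was lower in both DKO libraries, with a log2 fold change of -0.19 ± 0.06 (adjusted p = 0.0109), though the WT libraries differed from each other by more than the lower of them did from DKO. ERBB3, whose protein has a weak kinase and signals mainly through its partner, had 14.9 and 17.3 CPM in DKO and 16.5 and 14.9 CPM in WT. Its groups overlapped and its log2 fold change was 0.04 ± 0.08 (adjusted p = 0.733).

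The EGFR and ERBB2 calls were lost in some runs with 1 library left out, while the fold changes kept their direction. Over the 13 alternatives the log2 fold change lay between 0.17 and 0.23 for EGFR and between -0.28 and -0.10 for ERBB2. EGFR was not called without WT replicate 1 (log2 fold change 0.22, adjusted p = 0.086) or without WT replicate 2 (0.17, adjusted p = 0.11). ERBB2 was not called without DKO replicate 1 (-0.18, adjusted p = 0.0575) or without WT replicate 1 (-0.10, adjusted p = 0.328), and its fold change was -0.28 without WT replicate 2. It was also not called with no filter beyond 1 read (-0.20, adjusted p = 0.19) or by the Wald test of DESeq2 (-0.18, adjusted p = 0.0875). EGFR spans 55019017 to 55211628 on the plus strand of chromosome 7, ERBB2 39688094 to 39728658 on the plus strand of chromosome 17, and ERBB3 56080108 to 56103505 on chromosome 12.

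LRIG1 showed by far the largest difference of the 10 genes. It had 46.1 and 47.3 CPM in the DKO libraries (2454 and 2520 reads) and 3.88 and 4.01 CPM in the WT libraries (201 and 205 reads). The values within each group were almost equal, and the groups were far apart. The log2 fold change was 3.56 ± 0.08 (adjusted p = 2.97e-101), or 11.8-fold, and lay between 3.54 and 3.60 in the 13 alternatives, with an adjusted p under 0.05 in each. The gene is on the minus strand of chromosome 3, from 66378797 to 66501121. Its RefSeq span shares 131 bases with the end of SLC25A26, a mitochondrial carrier gene on the plus strand. SLC25A26 stood at 280.3 and 287 CPM in DKO and 259.6 and 269 CPM in WT and was not called (log2 fold change 0.10 ± 0.05, adjusted p = 0.085). Whether reads were counted by strand is not given in the sources used here. None of the 4 other tested genes within 1 Mb of LRIG1 was called, against 40.1% of all tested genes. The median log2 fold change of these 4 was 0.10.

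The other LRIG genes, whose part in restraining the receptors is less settled than that of LRIG1, differed much less. LRIG2 had 88.8 and 87.8 CPM in DKO and 89.6 and 95.7 CPM in WT. The DKO values were the lower ones, but the difference was small and not called (log2 fold change -0.07 ± 0.05, adjusted p = 0.256). LRIG3 had 28.9 and 30.8 CPM in DKO and 25.9 and 22.8 CPM in WT. It was higher in both DKO libraries, with a log2 fold change of 0.30 ± 0.06 (adjusted p = 5.11e-05), or 1.23-fold. Without WT replicate 2 the LRIG3 value was 0.21 and was not called (adjusted p = 0.118), nor was it with no filter beyond 1 read (0.29, adjusted p = 0.107). LRIG2 spans 113073198 to 113132260 on the plus strand of chromosome 1 and LRIG3 58872155 to 58920504 on the minus strand of chromosome 12. Within 1 Mb of LRIG2, 11 of 22 other tested genes were higher and 1 lower, against 19% and 21.1% of all tested genes. The 4 other tested genes within 1 Mb of LRIG3 had a median log2 fold change of -0.44, with none higher and 1 lower.

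LRIG1 thereby took a larger part of the family's nascent RNA. Per kb of gene span it made up 15.2% and 15.4% of the summed CPM of the 3 LRIG genes in DKO and 1.52% and 1.54% in WT. LRIG2 remained the highest per kb, at 3.99 and 3.85 times the CPM per kb of LRIG1 in DKO and 47.9 and 49.4 times in WT. The summed CPM per kb of the 3 genes was 2.48 and 2.51 in DKO and 2.08 and 2.12 in WT.

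ERRFI1, the MIG6 gene, whose transcription EGF signalling itself induces, was slightly lower. It had 386 and 368 CPM in DKO and 434 and 405 CPM in WT, with no overlap. The log2 fold change was -0.15 ± 0.05 (adjusted p = 0.00756). The call was lost without DKO replicate 2 (-0.12, adjusted p = 0.0693), without WT replicate 1 (-0.10, adjusted p = 0.314) and without WT replicate 2 (-0.21, adjusted p = 0.0838). It was also lost with upper quartile scaling (-0.12, adjusted p = 0.077) and with no filter beyond 1 read (-0.16, adjusted p = 0.134). ERRFI1-DT, a non-coding RNA on the opposite strand that starts 183 bases from the ERRFI1 span, was also lower, at 15.9 and 15.7 CPM in DKO and 17.6 and 18.1 CPM in WT (-0.18 ± 0.07, adjusted p = 0.0389). ERRFI1 spans 8011727 to 8026309 on the minus strand of chromosome 1.

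**Figure D2:**
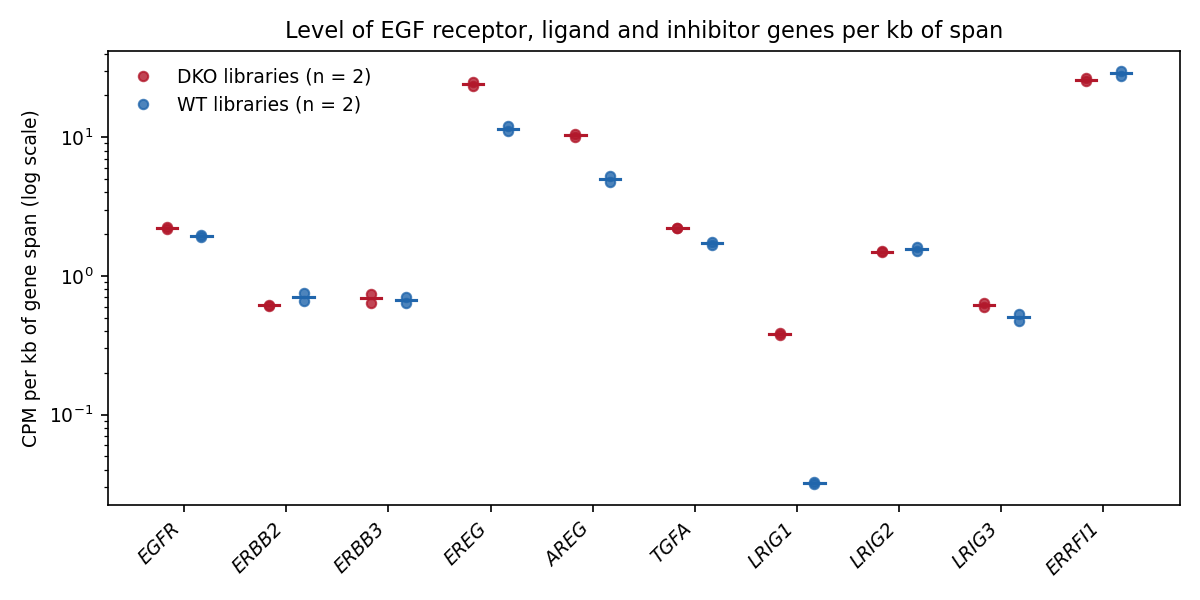
CPM per kb of RefSeq gene span on a log axis, with DKO libraries in red left of WT libraries in blue, 1 point per library and a line at each mean (n = 2). ERRFI1 and EREG are the highest, at 25.9 and 24.2 CPM per kb in DKO, and LRIG1 is the lowest in both groups.

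Levels can be ordered between genes only per length. The mean CPM per kb of span in DKO was 25.9 for ERRFI1, 24.2 for EREG, 10.3 for AREG, 2.22 for TGFA, 2.21 for EGFR, 1.49 for LRIG2, 0.689 for ERBB3, 0.618 for LRIG3, 0.617 for ERBB2 and 0.382 for LRIG1. In WT it was 28.8 for ERRFI1, 11.5 for EREG, 4.99 for AREG, 1.93 for EGFR, 1.72 for TGFA, 1.57 for LRIG2, 0.704 for ERBB2, 0.671 for ERBB3, 0.503 for LRIG3 and 0.0322 for LRIG1. In both groups the libraries of ERRFI1, EREG and AREG stood above all others, and those of LRIG1 below. In DKO the libraries of EREG and ERRFI1 did not overlap but lay close (24.8 and 23.5 CPM per kb for EREG, 26.5 and 25.3 for ERRFI1), TGFA and EGFR overlapped, and so did ERBB3 with LRIG3 and LRIG3 with ERBB2. In WT ERBB2 and ERBB3 overlapped. ERRFI1 ranked 76th in DKO and 66th in WT by CPM per kb among 13079 tested protein-coding genes with a span, and EREG ranked 86th in DKO and 225th in WT. LRIG1 ranked 8833rd in DKO and 11533rd in WT. The span counts introns, and whether the authors counted reads over exons or whole genes is not given, so these levels may shift between genes with much and little intron.

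The pattern over the 4 libraries was compared with that of every other tested protein-coding gene, by the Euclidean distance between log2 CPM values centred on each gene's mean. Nearest to LRIG1 were CAMK4, a calcium and calmodulin dependent kinase gene (distance 0.13), and GPR173, an orphan receptor gene (0.16). CAMK4 had 68.3 and 68.0 CPM in DKO and 6.15 and 6.44 CPM in WT. Nearest to EREG were SMAD7, a TGF-beta inhibitor gene (0.016), and AREG (0.028). SMAD7 had 52.8 and 49.2 CPM in DKO and 25.3 and 23.2 CPM in WT. For AREG the nearest genes were the same pair, EREG and SMAD7. With 4 libraries in 2 groups, such distances mainly compare fold changes.

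Beyond the 10 genes, 42 others of the pathway were listed, of which 40 were tested. Of these, 12 were higher and 9 lower, against 19% and 21.1% of all tested genes, and their median log2 fold change was 0.05. RHBDL2 (4 to 9 reads per library) and SOCS5 (0 reads) were not tested.

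Of 8 other ligand genes, 4 were higher and 1 lower, against 19% and 21.1% of all tested genes. NRG1, the gene of neuregulin 1, a ligand of ERBB3 and ERBB4, had 14.3 and 12.4 CPM in DKO and 2.35 and 3.05 CPM in WT. This was 4.94-fold, the largest in the list, with a log2 fold change of 2.31 ± 0.11 (adjusted p = 1.19e-50). NRG4, the neuregulin 4 gene (0.39 ± 0.09), and EGF (0.54 ± 0.20) were also called higher. EGF rested on 46 to 95 reads per library and was not called without DKO replicate 2 (0.17, adjusted p = 0.663) or without either WT library in turn. HBEGF, the gene of heparin-binding EGF, was the ligand called lower, at 14.3 and 13.4 CPM in DKO and 20.9 and 18.8 CPM in WT (-0.52 ± 0.07, adjusted p = 7.56e-10). NRG4 was not called without WT replicate 1 (0.31, adjusted p = 0.144) or with no filter beyond 1 read (0.38, adjusted p = 0.0884). FBXO22 shares 7119 bases with NRG4 and stood at 118 CPM in DKO and 123 CPM in WT on average, so reads of this pair may be shared too. EPGN, NRG2 and NRG3 were not called. Among the ERBB receptors, ERBB4 was called higher on few reads, with 31 and 41 in DKO and 14 and 25 in WT (0.83 ± 0.30, adjusted p = 0.0186). Its fold change was 0.46 without WT replicate 1, 1.31 without WT replicate 2 and 0.62 without DKO replicate 2, and it was called in none of these runs.

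Of 6 tested genes for ligand release, the metalloprotease genes ADAM10, ADAM17 and ADAM9 were higher and RHBDF1 and RHBDF2 lower. Among all tested genes, 19% were higher and 21.1% lower. ADAM10, whose product sheds EGF and betacellulin, had 311 and 318 CPM in DKO and 246 and 257 CPM in WT (0.32 ± 0.05, adjusted p = 2.32e-09). ADAM17, whose product sheds AREG, EREG and TGFA, had 120.5 and 125 CPM in DKO and 100.5 and 105 CPM in WT (0.26 ± 0.05, adjusted p = 1.19e-06). RefSeq places 23923 bases of IAH1, which stood at 31.6 CPM in DKO and 2.21 CPM in WT on average, over ADAM17 on the opposite strand, so reads of this pair may be shared. ADAM9 was higher by 0.23 ± 0.05. RHBDF2, whose product iRhom2 carries ADAM17 to the cell surface, had a log2 fold change of -0.20 ± 0.05, and its relative RHBDF1 one of -0.33 ± 0.13. Without WT replicate 1, ADAM9 (adjusted p = 0.0828), ADAM17 (0.0786), RHBDF2 (0.128) and RHBDF1 (0.338) were not called. Without WT replicate 2, ADAM9 (0.0618) and RHBDF1 (0.198) were not called, and RHBDF1 was not called without DKO replicate 1 either, at -0.17 (0.412).

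Of 11 adaptor and effector genes, GAB1 and NCK1 were higher and PLCG1 and PTPN11 lower, against 19% and 21.1% of all tested genes. GAB1, a docking protein gene that links the receptors to PI3 kinase, had 30.8 and 35.7 CPM in DKO and 16.5 and 16.3 CPM in WT (1.02 ± 0.07, adjusted p = 1.09e-32), or 2.03-fold. PLCG1, the phospholipase C gamma gene, had 54.0 and 55.6 CPM in DKO and 84.8 and 79.9 CPM in WT (-0.59 ± 0.05, adjusted p = 1.46e-22). NCK1 was higher by 0.16 ± 0.05 and was not called without WT replicate 1 (0.14, adjusted p = 0.168) or without WT replicate 2 (0.17, adjusted p = 0.09). PTPN11 (-0.11 ± 0.05) lost its call with any 1 of the 4 libraries left out. The other 7, including GRB2, SHC1 and SOS1, which pass the signal to RAS, were not called.

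Of 14 tested genes for receptor removal and other brakes, CBLB and STAM were higher, and PTPN1, CBLC, SH3KBP1 and RNF41 lower. Among all tested genes, 19% were higher and 21.1% lower. PTPN1, the gene of a phosphatase that acts on the receptors, had 382 and 375 CPM in DKO and 534 and 526 CPM in WT (-0.49 ± 0.05, adjusted p = 3.52e-17). PLCG1 and PTPN1 both lie on chromosome 20, where 340 of 428 tested genes were lower and the median log2 fold change was -0.59. CBLC (-0.28 ± 0.06) and CBLB (0.20 ± 0.05), which encode ubiquitin ligases that mark receptors for degradation, went in opposite directions, and CBL itself was not called (-0.02 ± 0.05). Without WT replicate 1 neither CBLC (-0.26, adjusted p = 0.0626) nor CBLB (0.19, adjusted p = 0.107) was called, and CBLB also not without WT replicate 2 (0.20, adjusted p = 0.0834). SH3KBP1 and STAM lost their calls without either WT library in turn, and RNF41 with any 1 library left out.

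**Figure D3:**
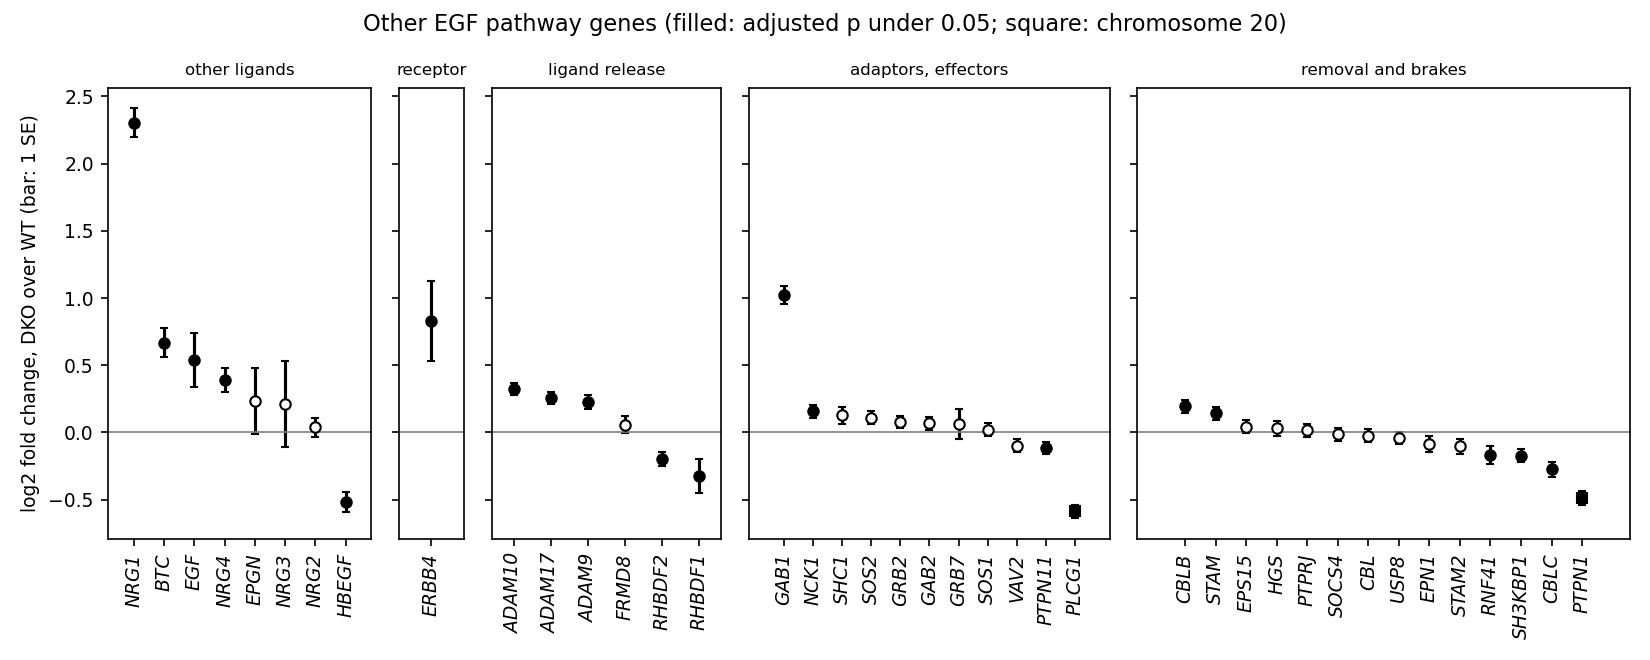
Log2 fold change (DKO over WT) of the 40 tested other pathway genes by role, with bars of 1 SE. Filled points have an adjusted p under 0.05 and squares mark chromosome 20. NRG1 and GAB1 are the highest, at 2.31 and 1.02, and the chromosome 20 genes PLCG1 and PTPN1 are the lowest of their roles.

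The position of the 10 genes was also examined. Of 18 tested genes whose spans overlap one of them or come within 50 kb, 1 was higher and 3 lower, where 19% of all tested genes were higher and 21.1% lower. The overlapping ones were SLC25A26, described above, and MIEN1, which shares 149 bases with ERBB2 and was not called, at 6.42 and 7.07 CPM in DKO and 6.69 and 6.09 CPM in WT (0.08 ± 0.10, adjusted p = 0.581). The nearby gene that was higher was IKZF3, and those that were lower were STARD3, IKZF4 and ERRFI1-DT, named after their values were seen. LRIG2-DT and LRIG3-DT, which start close to the LRIG2 and LRIG3 promoters on the opposite strand, were not called (-0.28 ± 0.18 and -0.72 ± 0.36). EGFR-AS1 had 1 to 3 reads per library, and TGFA-IT1 and MIR4728, which lie inside TGFA and ERBB2, had 0. How reads in overlapping spans were assigned is not given, so these counts do not show a lack of transcription there.

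**Figure D4:**
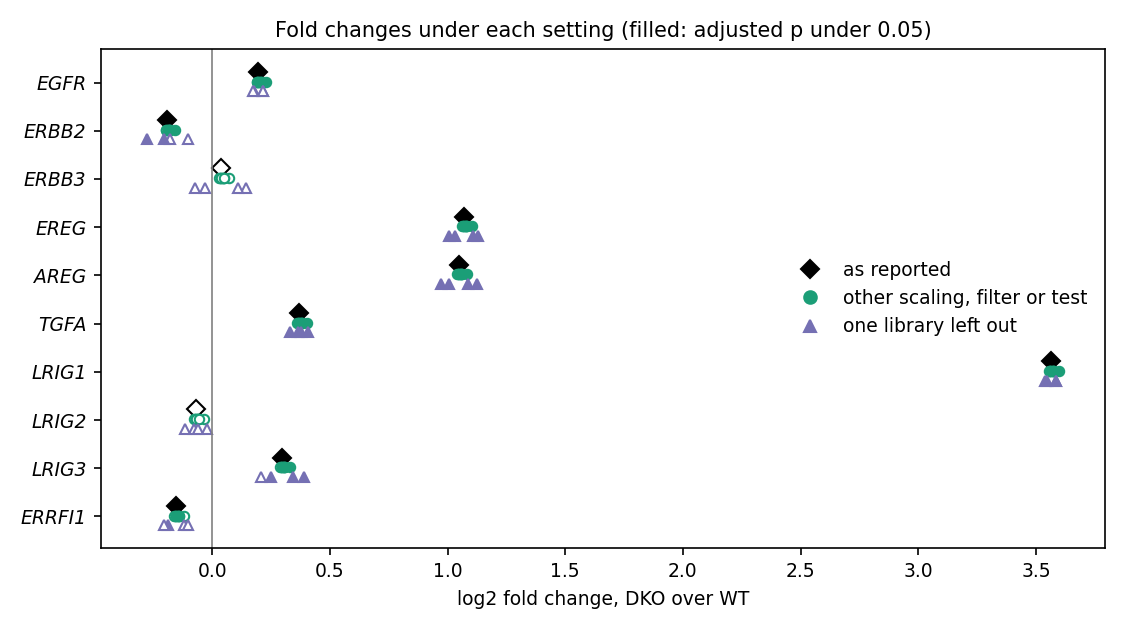
Log2 fold change (DKO over WT) of each gene as reported (black diamonds), under another scaling, filter, test or block (green circles) and with 1 library left out (purple triangles). Filled symbols have an adjusted p under 0.05. LRIG1, EREG, AREG and TGFA keep filled symbols throughout, while EGFR, ERBB2, LRIG3 and ERRFI1 have open ones.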

How the data were processed

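TTchem-seq libraries of HCT116 cells, 2 DKO and 2 WT, took their groups from the titles. By the labels' protocols, 66 ng of labelled RNA entered a stranded kit and was read in single reads of 75 bp. The authors deposited raw read counts per Ensembl gene. Per the submitters' processing notes, STAR 2.7.3a, featureCounts 1.6 and build hg38 were used. Strand setting, feature type and gene set version: not given in the sources used here. No spike-in counts entered the scaling here, so levels are relative to the library total.

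IDs were matched without version to symbols (42020 of 60656) and RefSeq spans of GRCh38.p14 (40210). Every row names a gene. Promoters came from the RefSeq table, with 9 of the 10 genes matched.

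Counts were tested with edgeR 4.0.16 in R 4.3.3 (quasi-likelihood F-test, group only, TMM, filterByExpr with minimum count 10 and total 15) over 19103 genes, with Benjamini-Hochberg adjustment. A call is an adjusted p under 0.05. CPM uses TMM library sizes, and log2 CPM a prior count of 2. Chi-square per degree of freedom between replicates was 4.57 in DKO and 3.98 in WT, so both replicates of each group were kept as separate samples. The test was run on simulated data first. The 10 genes, the pathway list, the motifs and the tests were chosen with earlier results of these data known. By the naming rule, every called ligand, receptor and release gene was named, and the 3 largest calls of the other roles. The remaining genes behind a count, and the called neighbours, were named after their values were seen. The alternatives used DESeq2 1.42.0 and limma 3.58.1 among others. Figures were drawn with matplotlib 3.10.9.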

Additional observations from a re-analysis of the deposited data

How the results depend on the processing

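Under the 13 alternatives, 117 values of the 10 genes kept their side of the threshold and, where called, their direction, and 13 kept their direction but lost the call. These were of EGFR, ERBB2, LRIG3 and ERRFI1, and LRIG1, EREG, AREG and TGFA lost none. ERBB3, never called, turned negative without DKO replicate 2 (-0.08) and without WT replicate 2 (-0.03). The 2 genes called lower became 1 with upper quartile factors (ERRFI1 lost) or the Wald test of DESeq2 (ERBB2 lost), and 0 by edgeR with no filter beyond 1 read, where both had an unadjusted p under 0.05. With 1 library left out they numbered 0 to 1, and 0 without WT replicate 1, where also 0 passed unadjusted. Of the 6 genes called higher, EGFR and LRIG3 lost the call in some alternatives, and all 6 kept their direction. By edgeR with no filter beyond 1 read, 5 were called higher and 6 had an unadjusted p under 0.05. Over all genes, calls came to 1640 higher and 1655 lower with no filter, against 3632 and 4025, and the Wald test of DESeq2 gave 2479 higher and 2524 lower. With 1 library left out they ranged from 1023 to 3127 higher and from 928 to 3443 lower, both lowest without WT replicate 1. The other pathway genes gave 6 higher and 4 lower with no filter (EGF, NRG4, ERBB4, RHBDF1, RHBDF2, PTPN11, NCK1, CBLB, RNF41, SH3KBP1 and STAM lost), and 4 to 14 higher and 3 to 7 lower with 1 library left out. The cause of these changes was not tested. With a WT library left out, the lone WT library is assumed to vary like the DKO pair.

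The correlation of same-numbered deviations from the group means was 0.011. With 2 libraries per group the deviations mirror each other, so this cannot tell whether equal numbers mark a shared culture. With the replicate number as a block 3742 genes were higher and 4078 lower. These included 6 and 2 of the 10 genes, and 13 and 10 of the other pathway genes. No scaling moved the median of all genes by over 0.1, the largest shift being 0.03 (log2). Low read numbers limit EGF, ERBB4, EPGN and NRG3.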
